A study of Mus musculus with 12 samples.

Results

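Whether the effect of a LIGHT overexpression line on gene expression depended on the stage of adipocyte differentiation was read from 12 RNA-seq libraries of 3T3-L1 cells, mouse preadipocytes that can be made into fat cells in a dish. The libraries fall into 4 labelled groups of 3: a control line and a line overexpressing LIGHT (encoded by Tnfsf14), each undifferentiated and each after a beige cocktail of dexamethasone at 2 µg/ml, IBMX at 0.5 mM, rosiglitazone at 1 µM, triiodothyronine at 1 nM, indomethacin and insulin at 5 µg/ml for 48 h, then rosiglitazone, triiodothyronine and insulin. The whole set enters as all 12 labelled libraries and, because 2 of them carry Tnfsf14 against their labels, again as 10 of 12 libraries. All groups share the parent line and the serum medium, while the sources used here do not give the day of harvest, what drives the transgene or whether each line is 1 clone. The labels do not say that libraries of 1 group were separate cultures, and a p-value here reflects only how far these samples spread, which may be technical.

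LIGHT is a cytokine of the tumour necrosis factor family that binds the lymphotoxin β receptor (Ltbr) and the herpesvirus entry mediator (Tnfrsf14), and its receptors act through TRAF adaptors and the noncanonical and canonical NF-κB pathways. Immediate early genes such as Fos and Egr1 are switched on within minutes of growth factor or cytokine signals through ERK and serum response factor, and their proteins form AP-1 and EGR transcription factors. Colony stimulating factor 1 (Csf1) is the growth factor of macrophages and their precursors, and adipocyte precursors are a source of it in fat tissue. In bulk RNA a change in the level of a gene cannot be told apart from a change in the share of cells that express it.

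Tnfsf14 and the libraries set the frame. Each library held 16334079 to 19686675 expected counts, and levels are given in CPM, which relates the count of a gene to the TMM-scaled size of its library. Tnfsf14 gave 0, 0.0562 and 0 CPM in the undifferentiated control libraries and 2.24, 2.78 and 3.11 CPM in the undifferentiated LIGHT libraries. After differentiation it was 0 and 0 CPM in control 2 and 3 and 7.81 and 7.43 CPM in LIGHT 2 and 3, with 7.03 CPM in the library labelled control 1 and 0 CPM in the library labelled LIGHT 1. The library labelled control 1 thus held the transgene signal of the LIGHT line and the library labelled LIGHT 1 lacked it. On the second principal component of log2 CPM, which carried 9.11% of the variance, differentiated control 2 and 3 lay at 21.9 and 19.4 and differentiated LIGHT 2 and 3 at -22.3 and -19.4, while the library labelled control 1 lay at -22.6 and the library labelled LIGHT 1 at 21.2. The differentiated libraries expressed the adipocyte markers Adipoq and Fabp4, but the thermogenic marker Ucp1 gave 0 to 2 counts in each of the 12 libraries and Prdm16 0 to 1, so these 2 markers of the beige state were at or near 0. The sum over a wider list of thermogenic genes did rise, from 24.1 to 31.3 CPM before differentiation to 114 to 183 CPM after it.

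A line difference is the log2 fold change of LIGHT over control at a stage, and the interaction is the line difference after differentiation minus that before it, so that a positive interaction means that the LIGHT line rose relative to control. With all 12 libraries as labelled, edgeR's quasi-likelihood test called an interaction at a Benjamini-Hochberg adjusted p under 0.05 in 1214 of 12993 genes (9.34% of the genes tested), 660 positive (5.08%) and 554 negative (4.26%). Differentiation itself changed 63.9% of genes in the control line (32.2% higher and 31.7% lower) and 58.6% in the LIGHT line. Before differentiation the lines differed in 3446 genes (26.5%). After it edgeR called 0 genes (523 had an unadjusted p under 0.05, and DESeq2 called 1), and so 1191 of the 1214 genes (9.17% of tested) differed before and not after, 23 differed at neither stage, and 0 appeared or reversed (DESeq2 gave 1 reversal). Leaving out single libraries moved the number of positive and negative interactions between 349 and 982 and between 326 and 886, lowest without undifferentiated LIGHT 2 and highest without the library labelled differentiated control 1.

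Without the 2 libraries, 4077 of 13150 genes carried an interaction (31%), 1964 positive (14.9%) and 2113 negative (16.1%). When counts were scaled by library totals in place of TMM, the split was 2771 positive and 1469 negative, and the median interaction of all genes moved from -0.012 to 0.089. The lines differed in 5836 genes before (44.4%, 22.3% higher and 22.1% lower) and in 4079 after (31%, 14.6% higher and 16.4% lower in LIGHT cells). The stage changes called were 70.7% of genes in control (34.9% lower) and 64.1% in LIGHT cells (32.3% higher). The line difference vanished in 1725 genes (13.1%), of which 820 had been higher and 905 lower in LIGHT cells. It appeared in 1064 genes (8.09%), 456 higher and 608 lower, and it reversed in 755 (5.74%), 341 to higher and 414 to lower. It widened in 180 genes (1.37%), narrowed in 173 (1.32%) and was called at neither stage in 180. In 1437 of the 1725 genes that vanished, the 95% interval of the difference after differentiation lay within 0.5 log2 either way. That bound is wider than the median difference before of those that had been higher (0.43) or lower (-0.42). It also held 344 of the 755 reversing genes, all called different after, so genes of the vanishing class may still differ. Without differentiated LIGHT 2 the genes that differed after numbered 2568, the reversing genes 450 and the appearing genes 675, and without differentiated LIGHT 3 the reversing genes numbered 501.

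**Figure D1:**
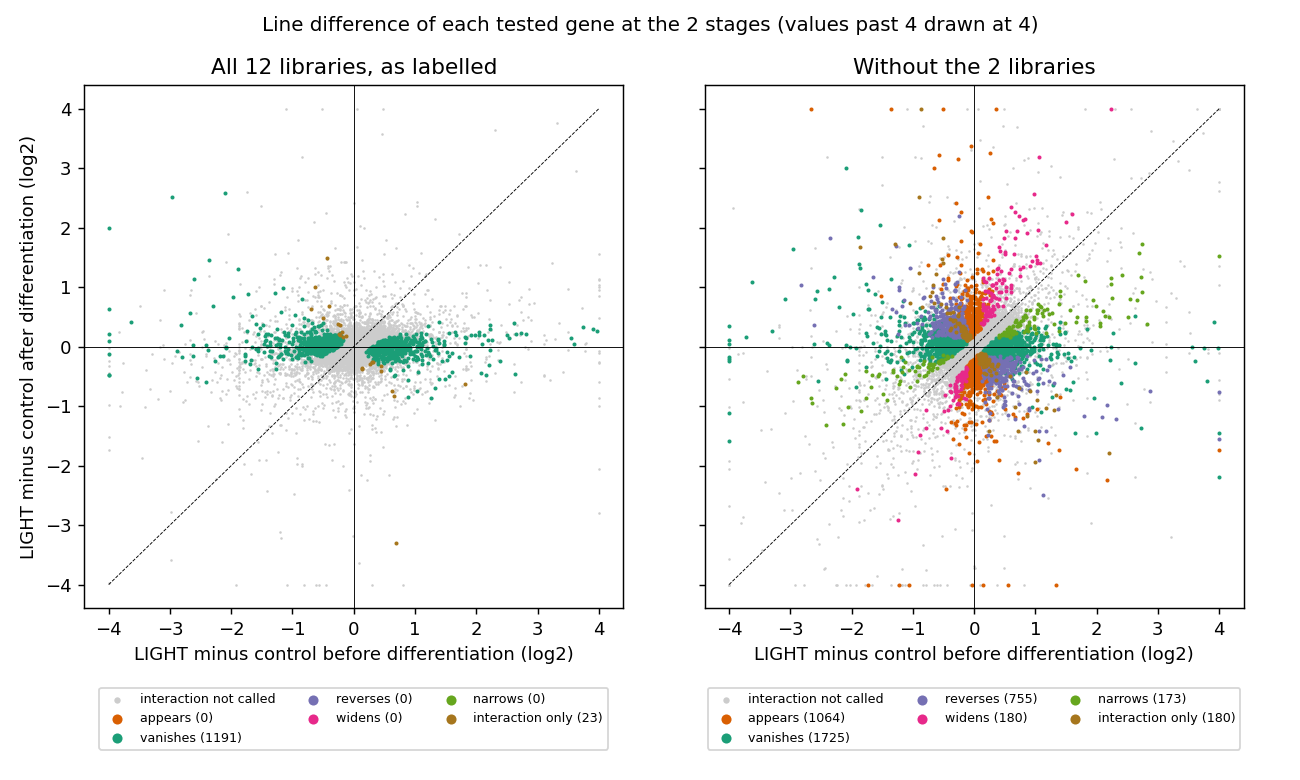
Line difference of every tested gene before (horizontal, log2) and after differentiation (vertical, log2), as labelled with 12 libraries (left) and with 10 (right). Colours give the class of genes with a called interaction, numbers in the legend count them, the dashed line marks equal differences at both stages, and points past 4 are drawn at 4. As labelled, the 1191 genes of the vanishing class lie along the horizontal axis, while with 10 libraries 755 genes lie in the reversing quadrants.

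Of the 1214 interactions as labelled, 1206 were also called without the 2 libraries, all 1206 with the same sign (99.3% of the first list and 29.6% of the 4077). The 2 fits share 10 libraries, so this overlap is no independent support. The classes changed more: without the 2 libraries 101 of the 1214 reversed to higher and 102 to lower. A further 60 stayed higher and 47 stayed lower in LIGHT cells with a narrower difference. Over the 13150 genes the line differences before and after correlated with Pearson's r = 0.303 and Spearman's rho = 0.203, as a description across genes, which are not independent. Of 2282 genes that differed at both stages, 1527 kept the sign and 755 changed it.

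The libraries left out had no part in setting the classes. Their difference, the library labelled LIGHT 1 minus the library labelled control 1 in log2 of CPM plus 1, had the sign opposite to that of the kept libraries in 1020 of 1064 appearing genes (95.9%), 723 of 755 reversing genes (95.8%) and 9928 of all 13150 genes (75.5%). Among all genes with a called line difference after differentiation the sign was opposite in 3881 of 4079 (95.1%). Appearing and reversing genes have such a call by definition. Their shares were near that of all genes so called and are not particular to these classes. For the vanishing genes the count was 1193 of 1725.

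**Figure D2:**
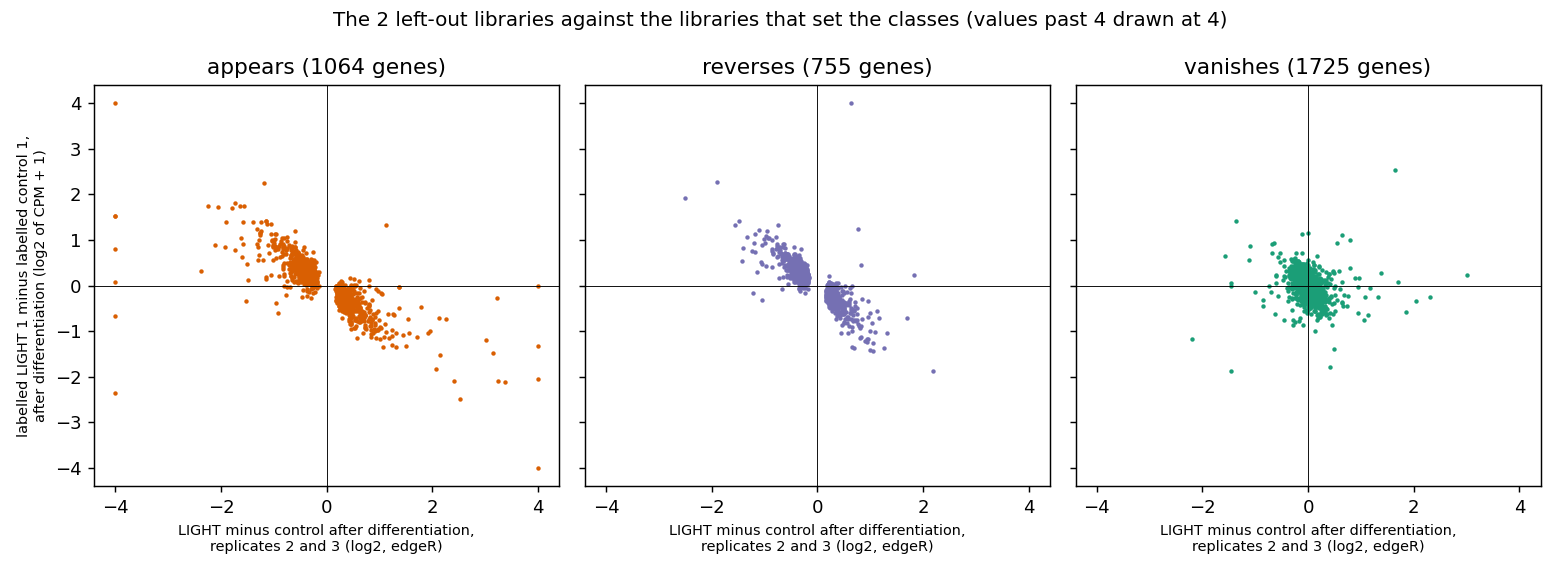
Difference between the 2 left-out libraries (vertical, log2 of CPM plus 1, as labelled) against the line difference after differentiation in the kept libraries (horizontal, log2), for the genes that appear, reverse and vanish; points past 4 are drawn at 4. Points of the first 2 panels lie in the quadrants of opposite sign for 1020 of 1064 and 723 of 755 genes.

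Immediate early and AP-1 genes were more often higher than lower in LIGHT cells before differentiation, and many lost that difference after it. Of 30 tested members, 17 were higher and 6 lower before (background 22.3% and 22.1%), and 10 were higher and 8 lower after (background 14.6% and 16.4%). Of the 30, 17 had a negative and 9 a positive interaction without the 2 libraries (background 16.1% and 14.9%), with a median of -0.41 against -0.01 over all genes. In 8 members the excess in LIGHT cells vanished and in 4 it narrowed. Summed over the list the level was 1480 to 1610 CPM in undifferentiated control and 2380 to 2420 in undifferentiated LIGHT libraries. After differentiation it was 2070 CPM in both control 2 and control 3, against 2150 and 2200 in LIGHT 2 and 3. The libraries labelled control 1 and LIGHT 1 held 1820 and 2030 CPM.

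Fos (gene 14281) encodes an AP-1 subunit. Fos gave 2.14, 2.42 and 2.27 CPM in the undifferentiated control libraries and 28.9, 31.9 and 19.2 CPM in the undifferentiated LIGHT libraries. Its differentiated levels were 23.6 and 19.6 CPM in control 2 and 3 and 21 and 22.1 CPM in LIGHT 2 and 3, with 16.4 CPM in the library labelled control 1 and 22.9 CPM in the library labelled LIGHT 1. Before differentiation every LIGHT library lay above every control library, and afterwards the lines overlapped. The interaction was -3.57 (SE 0.26, adjusted p = 8e-09), made of a line difference of 3.56 before and -0.01 after (95% interval of the latter -0.37 to 0.35). Fos rose in the control line on differentiation (log2 3.26), and its change in LIGHT cells was -0.30. As labelled the interaction of Fos was -3.40 (SE 0.27, adjusted p = 4.68e-05). Fosb, a related AP-1 subunit, vanished too, but through the other line. Fosb gave 1.5, 1.57 and 1.4 CPM in the undifferentiated control libraries and 22.7, 22.7 and 9.23 CPM in the undifferentiated LIGHT libraries. Once differentiated, the cells held 2 and 1.73 CPM in control 2 and 3 and 1.8 and 1.34 CPM in LIGHT 2 and 3, with 1.43 CPM in the library labelled control 1 and 2.18 CPM in the library labelled LIGHT 1. The lines were apart before and overlapped after. It fell in LIGHT cells by 3.51 on the log2 scale while the change in control cells was 0.34, giving an interaction of -3.85 (SE 0.56, adjusted p = 3.45e-05), with a wide interval after differentiation (-1.19 to 0.71).

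Egr1 (gene 13653), a zinc finger factor induced by ERK signalling, narrowed and did not vanish. Egr1 gave 33.3, 30.8 and 31.9 CPM in the undifferentiated control libraries and 213, 235 and 223 CPM in the undifferentiated LIGHT libraries. In differentiated cells the levels were 233 and 233 CPM in control 2 and 3 and 306 and 305 CPM in LIGHT 2 and 3, with 241 CPM in the library labelled control 1 and 213 CPM in the library labelled LIGHT 1. Every kept LIGHT library lay above its controls at both stages, by 2.82 before and 0.38 after, and the interaction was -2.43 (SE 0.08, adjusted p = 1.79e-13). As labelled the interaction was -2.58 (SE 0.16, adjusted p = 9.3e-06). Ier2, another early response gene, narrowed from 2.05 to 0.35 with an interaction of -1.70 (SE 0.07, adjusted p = 1.99e-11). Zfp36, the RNA-binding protein tristetraprolin that degrades cytokine messages, narrowed from 2.06 to 0.39 with an interaction of -1.67 (SE 0.12, adjusted p = 1.12e-08). Btg2, an antiproliferative early gene, changed sign from 1.31 to -0.61 (interaction -1.92, SE 0.12, adjusted p = 1.83e-09).

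The list was not uniform. Fosl1, the AP-1 subunit Fra-1, was lower in LIGHT cells at both stages. Fosl1 gave 55.5, 59.1 and 59.7 CPM in the undifferentiated control libraries and 12.4, 12.8 and 14.1 CPM in the undifferentiated LIGHT libraries. The differentiated libraries held 227 and 234 CPM in control 2 and 3 and 87.9 and 101 CPM in LIGHT 2 and 3, with 77.1 CPM in the library labelled control 1 and 235 CPM in the library labelled LIGHT 1. Its deficit shrank from -2.14 to -1.30 (interaction 0.84, SE 0.10, adjusted p = 5.22e-06), as did that of the small Maf factor Maff, from -1.49 to -0.79. Egr3 went the other way: Egr3 ran at 5.25, 4.89 and 4.72 CPM (control before), 10.6, 9.69 and 10.3 (LIGHT before), 2.73 and 2.7 (control after) and 9.93 and 11.3 (LIGHT after), against 10.9 and 2.49 in the libraries labelled control 1 and LIGHT 1. Its excess in LIGHT cells widened from 1.05 to 1.96 (interaction 0.91, SE 0.22, adjusted p = 0.00392). Atf3, a stress-response factor, was not called before differentiation and was lower in LIGHT cells after it (-0.03 and -1.05, interaction -1.02, SE 0.20, adjusted p = 0.000832). Jun, Arc, Csrnp1 and Nr4a2 had no called interaction, which does not show that they kept their difference. For Jun, the main partner of Fos, it was -0.21 (SE 0.09, adjusted p = 0.0979) with an interval from -0.41 to -0.01, and it was called without undifferentiated LIGHT 3 (-0.26, adjusted p = 0.0293) or differentiated LIGHT 3 (-0.31, adjusted p = 0.0339). Ier3 (-0.43) lost its call under DESeq2, RLE scaling, library totals and a replicate block and without any library but undifferentiated control 3 or undifferentiated LIGHT 3, and Klf2 (-0.39) under DESeq2, library totals and without undifferentiated control 2, undifferentiated LIGHT 2, differentiated control 2 or 3 or differentiated LIGHT 2.

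**Figure D3:**
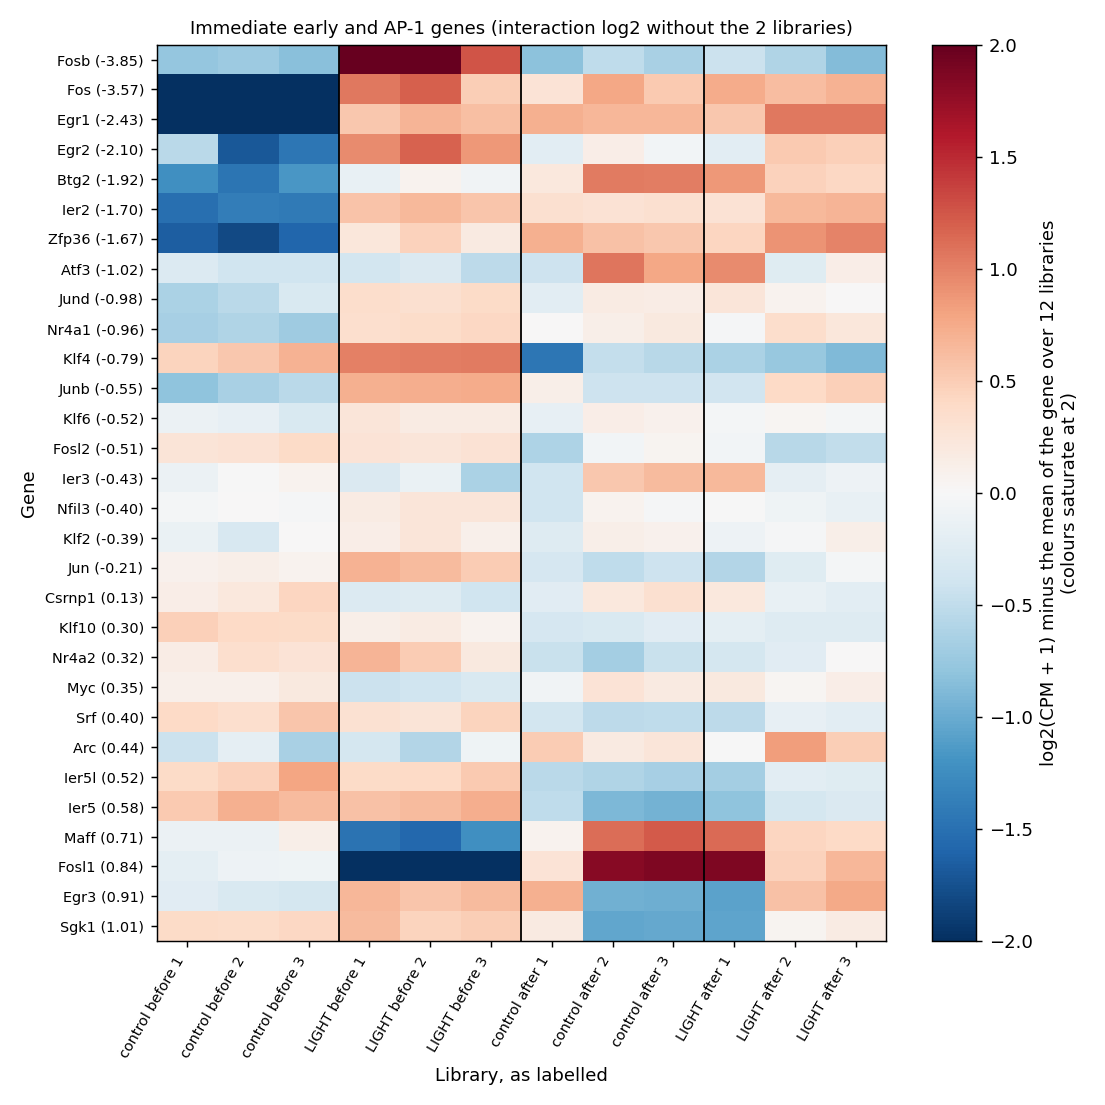
Immediate early and AP-1 genes (rows, with their interaction in log2 without the 2 libraries in brackets) in each of the 12 libraries as labelled (columns); colour is log2 of CPM plus 1 minus the mean of the gene over the 12 libraries, saturating at 2. The upper rows, Fosb to Zfp36, are low in the undifferentiated control and higher in the undifferentiated LIGHT columns.

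Sequences just upstream of the starts are shown for 4 early genes that were higher in LIGHT cells before differentiation. Among members with a RefSeq promoter entry (GRCm38.p6, 23 of 30 members), the EGR site GCGNGGGCG occurred on either strand within 250 bases before a start in 11 (47.8%), against 10.3% of all tested genes with an entry and 5.33% of all genes with an entry. The CArG box, the site of serum response factor, occurred in 3 (13%), against 1.41% and 1.62%, the cAMP response element TGACGTCA in 2 (8.7%, against 3.02% and 1.77%) and the AP-1 site TGANTCA in 1 (4.35%, against 5.69% and 7.82%). No motif searched contains another, and a match describes letters and not binding. Egr2, a relative of Egr1, is described here too. Egr2 gave 3.58, 1.07 and 1.46 CPM in the undifferentiated control libraries and 11.9, 14.2 and 11.2 CPM in the undifferentiated LIGHT libraries. On the differentiated side it ran at 6.36 and 5.45 CPM in control 2 and 3 and 8.61 and 8.35 CPM in LIGHT 2 and 3, with 4.79 CPM in the library labelled control 1 and 4.8 CPM in the library labelled LIGHT 1. Its line difference went from 2.62 to 0.52 (interaction -2.10, SE 0.38, adjusted p = 0.000284), and the difference after passed the threshold without undifferentiated control 1 or without the low-count filter. Capitals mark the matches: a CArG box in Egr2 (chr10:67537619-67537868, plus strand), a CArG box and an EGR site in Zfp36 (chr7:28379229-28379478, minus strand), an EGR site in Fosb (chr7:19310046-19310295, minus strand) and an EGR site and a cAMP response element in Btg2 (chr1:134079156-134079405, minus strand).
Egr2: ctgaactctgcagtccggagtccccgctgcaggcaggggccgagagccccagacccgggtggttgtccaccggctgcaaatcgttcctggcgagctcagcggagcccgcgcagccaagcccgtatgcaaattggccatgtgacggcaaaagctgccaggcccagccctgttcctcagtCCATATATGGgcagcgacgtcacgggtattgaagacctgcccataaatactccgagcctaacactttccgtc
Zfp36: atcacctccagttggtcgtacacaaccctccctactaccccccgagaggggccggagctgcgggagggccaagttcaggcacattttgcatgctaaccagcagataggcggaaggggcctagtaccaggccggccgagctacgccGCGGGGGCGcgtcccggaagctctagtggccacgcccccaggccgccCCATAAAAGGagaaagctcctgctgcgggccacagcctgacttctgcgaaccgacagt
Fosb: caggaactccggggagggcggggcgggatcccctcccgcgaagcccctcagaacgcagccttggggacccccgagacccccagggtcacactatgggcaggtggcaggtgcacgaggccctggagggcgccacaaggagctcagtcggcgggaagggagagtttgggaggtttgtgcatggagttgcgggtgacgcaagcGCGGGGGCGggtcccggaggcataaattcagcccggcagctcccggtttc
Btg2: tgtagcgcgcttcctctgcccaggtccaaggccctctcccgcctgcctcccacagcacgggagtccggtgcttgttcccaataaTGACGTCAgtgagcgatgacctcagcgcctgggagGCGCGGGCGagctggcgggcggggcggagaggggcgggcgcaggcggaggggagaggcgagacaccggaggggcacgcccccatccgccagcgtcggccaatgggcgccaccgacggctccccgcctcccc

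Feedback genes of the ERK pathway were mostly lower in LIGHT cells before differentiation, and fewer differed after it. Of 21 tested members 14 were lower before (background 22.1%). After it 3 were lower and 3 higher (1 without differentiated LIGHT 3), near the background of 16.4% and 14.6%. In all 8 had a positive and 1 a negative interaction (background 14.9% and 16.1%), with a median of 0.36, and 6 of the 8 vanished from lower. Dusp4, a phosphatase that inactivates ERK in the nucleus, shows it. Dusp4 gave 15.4, 19.2 and 19 CPM in the undifferentiated control libraries and 2.95, 2.99 and 4.08 CPM in the undifferentiated LIGHT libraries. After differentiation it was 49.4 and 48.1 CPM in control 2 and 3 and 46.3 and 55.9 CPM in LIGHT 2 and 3, with 50.4 CPM in the library labelled control 1 and 48.9 CPM in the library labelled LIGHT 1. LIGHT libraries were below all controls before (-2.40) and on either side of them after (0.06, interval -0.17 to 0.29), an interaction of 2.46 (SE 0.18, adjusted p = 9.06e-09). Etv4, an ETS factor induced by fibroblast growth factor signals, moved from -1.43 to 0.11 (interaction 1.54, SE 0.20, adjusted p = 8.81e-06). Dusp1, which is also a glucocorticoid target, was the exception and turned from 0.59 to -0.46 (interaction -1.05, SE 0.12, adjusted p = 2.93e-06).

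Growth factors were split. Of 33 tested members 7 had a positive and 4 a negative interaction, near the background shares, with a median of 0.09, and the 4 became 2 with library totals and without differentiated control 2, LIGHT 2 or LIGHT 3. Csf1 (gene 12977) reversed. Csf1 gave 406, 374 and 396 CPM in the undifferentiated control libraries and 216, 208 and 232 CPM in the undifferentiated LIGHT libraries. Its differentiated levels were 76.3 and 74.7 CPM in control 2 and 3 and 138 and 130 CPM in LIGHT 2 and 3, with 147 CPM in the library labelled control 1 and 79.2 CPM in the library labelled LIGHT 1. LIGHT libraries lay below all controls before differentiation and, among the kept libraries, above both controls after it. Csf1 fell on differentiation in both lines, more in control (-2.35) than in LIGHT cells (-0.70), and the interaction was 1.65 (SE 0.08, adjusted p = 2.03e-10), with line differences of -0.83 before and 0.82 after. As labelled the interaction was 1.07 (SE 0.34, adjusted p = 0.0693), past no threshold, but it was 1.44 (adjusted p = 0.00145) without the library labelled control 1 alone and 1.26 (adjusted p = 0.0148) without the library labelled LIGHT 1 alone. Fgf10, a growth factor of preadipocytes, reversed in the same direction, from -0.37 to 0.65 (interaction 1.01, SE 0.10, adjusted p = 5.03e-07), and Vegfa, the angiogenic factor, in the other, from 0.29 to -0.44 (interaction -0.73, SE 0.09, adjusted p = 5.52e-06).

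**Figure D4:**
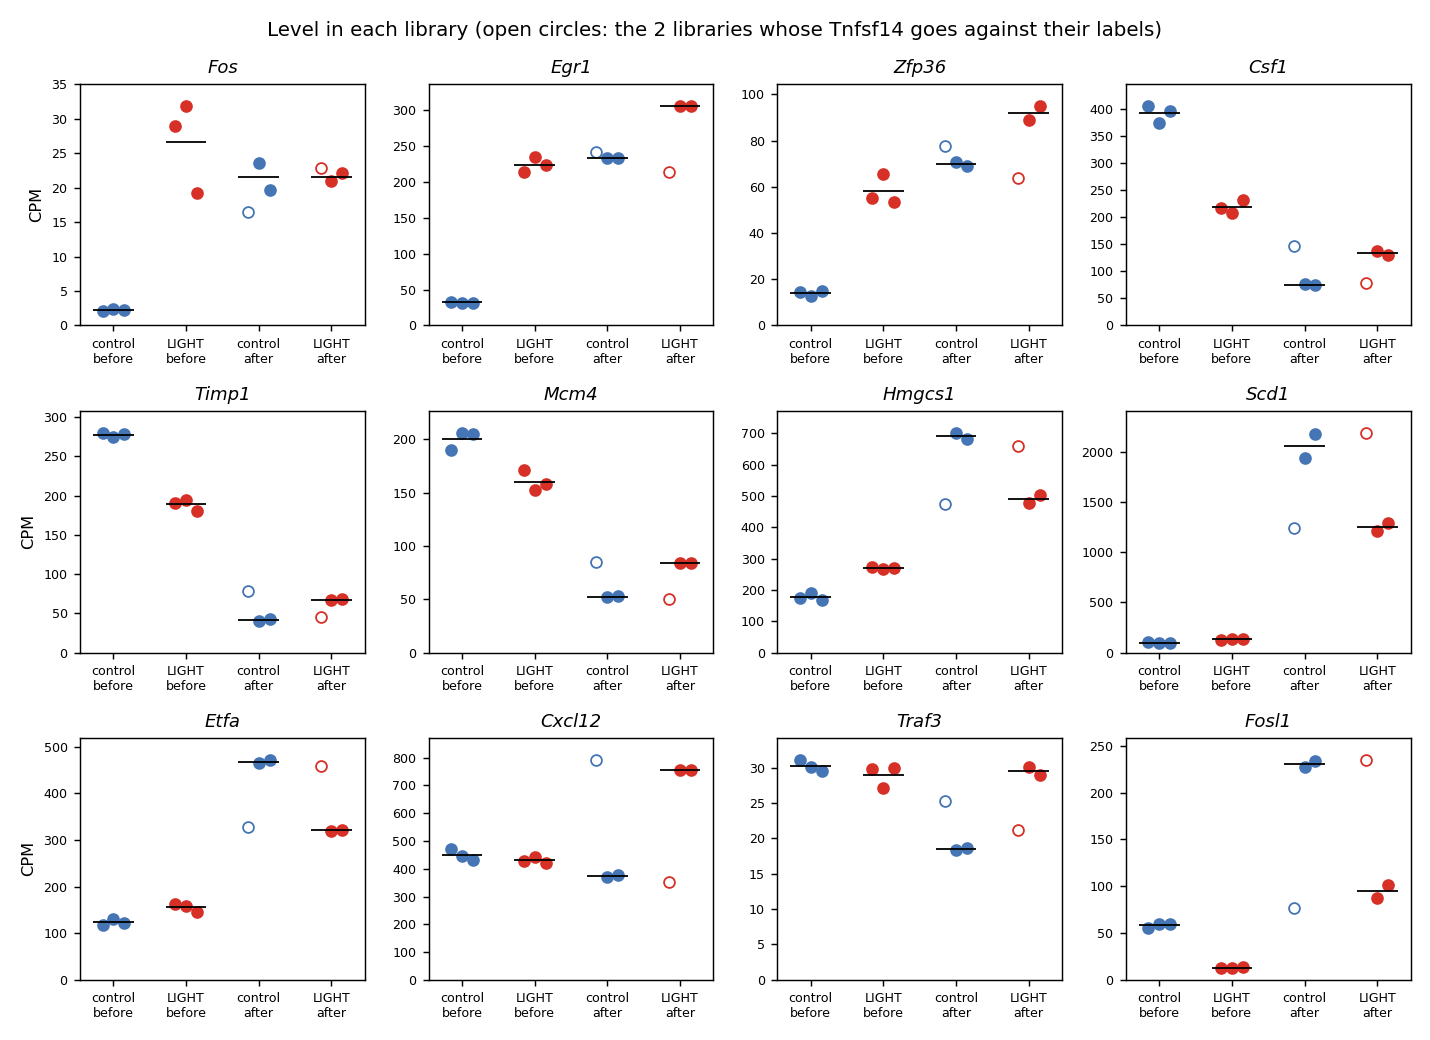
Level in CPM of 12 genes in each library, by line (control blue, LIGHT red) and stage; bars are means of the filled points and open circles are the libraries labelled differentiated control 1 and LIGHT 1. For Fos the LIGHT libraries lie above the controls before differentiation and overlap them after. For Csf1 they lie below before and, among the filled points, above after.

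Contractile and actin genes, many of them targets of serum response factor or YAP, were more often lower in LIGHT cells before differentiation and higher after it. Of 21 tested members 15 were lower and 3 higher before (background 22.1% and 22.3%), and 10 were higher and 3 lower after (background 14.6% and 16.4%). In all 13 had a positive interaction and 0 a negative one (1 had a negative interaction at an unadjusted p under 0.05, and DESeq2 called 0), with a median of 0.62. The background shares were 14.9% and 16.1%. In 6 the difference reversed to higher. Acta2, smooth muscle actin, is an example. Acta2 gave 1740, 1750 and 1940 CPM in the undifferentiated control libraries and 1440, 1390 and 1470 CPM in the undifferentiated LIGHT libraries. Once differentiated, the cells held 139 and 167 CPM in control 2 and 3 and 309 and 291 CPM in LIGHT 2 and 3, with 326 CPM in the library labelled control 1 and 144 CPM in the library labelled LIGHT 1. The lines did not overlap at either stage among the kept libraries. It fell on differentiation by 3.54 on the log2 scale in control and by 2.25 in LIGHT cells, and the line difference went from -0.32 to 0.96 (interaction 1.28, SE 0.10, adjusted p = 2.34e-08). Thbs1, thrombospondin 1, went from -0.46 to 0.99 (interaction 1.45, SE 0.13, adjusted p = 1.27e-07). Myl9, a regulatory myosin light chain, went from -0.25 to 2.19 (interaction 2.44, SE 0.21, adjusted p = 8.96e-08), but its difference before was lost without undifferentiated control 2, undifferentiated control 3 or undifferentiated LIGHT 2. Summed over the list, control 2 and 3 held 2390 and 2520 CPM after differentiation and LIGHT 2 and 3 held 3270 and 3210, against 9010 to 9520 and 8030 to 8660 before.

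Chemokines, cytokines and acute phase genes tended to gain in LIGHT cells, against background shares of 14.9% positive and 16.1% negative interactions. Of 27 tested members 10 had a positive and 2 a negative interaction, with a median of 0.44, and the 2 became 1 without differentiated control 3 or LIGHT 2. In 6 the difference reversed to higher, in 3 without differentiated LIGHT 2. Cxcl12, a chemokine that retains leukocytes and precursors, appeared. Cxcl12 gave 470, 447 and 433 CPM in the undifferentiated control libraries and 428, 443 and 420 CPM in the undifferentiated LIGHT libraries. In differentiated cells the levels were 369 and 376 CPM in control 2 and 3 and 756 and 756 CPM in LIGHT 2 and 3, with 792 CPM in the library labelled control 1 and 353 CPM in the library labelled LIGHT 1. Before differentiation the lines overlapped, and after it both kept LIGHT libraries were above both controls, a line difference of 1.02 and an interaction of 1.07 (SE 0.07, adjusted p = 6.48e-09). Ccl2, the monocyte chemoattractant, and Ptx3, a pentraxin of acute inflammation, reversed from -1.17 to 0.69 (interaction 1.86, SE 0.17, adjusted p = 1.32e-07) and from -0.71 to 0.66 (interaction 1.37, SE 0.11, adjusted p = 5.65e-08), though Ccl2 was a vanishing gene without differentiated LIGHT 2. Mmp3, a matrix protease, had an interaction of 2.99 (SE 0.17, adjusted p = 1.06e-09), but its small excess after (0.37) was lost under DESeq2 and without any of the 4 kept differentiated libraries. Lcn2, an acute phase carrier of siderophores, kept a smaller deficit, from -2.79 to -0.50 (interaction 2.30, SE 0.20, adjusted p = 1.09e-07), which passed no threshold after differentiation without differentiated LIGHT 2.

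Of 14 tested members of the pathway of LIGHT itself, 6 had a positive interaction (background 14.9%) and 0 a negative one (1 had a negative interaction at an unadjusted p under 0.05, DESeq2 called 0, and edgeR called 1 without undifferentiated control 3), and 5 of the 6 were higher in LIGHT cells at both stages. The sum over the list, which includes Tnfsf14, was 478 to 499 CPM in control and 584 to 605 in LIGHT libraries before, and 413 and 421 against 640 and 641 CPM after, with 626 in the library labelled control 1 and 430 in the library labelled LIGHT 1. The receptor Ltbr, adaptors Traf2 and Traf3 and the kinase Map3k14 (NIK) are its core. The interaction of the other receptor, Tnfrsf14, was not called, but without undifferentiated control 3 it was -3.12 (edgeR, adjusted p = 0.0104). Traf3 gave 31.1, 30.1 and 29.6 CPM in the undifferentiated control libraries and 29.8, 27.2 and 30 CPM in the undifferentiated LIGHT libraries. The differentiated libraries held 18.4 and 18.6 CPM in control 2 and 3 and 30.1 and 29 CPM in LIGHT 2 and 3, with 25.3 CPM in the library labelled control 1 and 21.2 CPM in the library labelled LIGHT 1. The lines overlapped before and, among the kept libraries, parted after, with a line difference of 0.67 and an interaction of 0.72 (SE 0.12, adjusted p = 9.9e-05). Traf2 widened from 0.20 to 0.81 (interaction 0.61, SE 0.10, adjusted p = 7.35e-05). Ltbr widened from 0.25 to 0.51 (interaction 0.26, SE 0.07, adjusted p = 0.0102), a call lost without differentiated control 2. Map3k14 went from 0.22 to 0.92 (interaction 0.71, SE 0.14, adjusted p = 0.00053), and its difference before was lost under DESeq2, library totals, without the low-count filter and without any of 5 undifferentiated libraries.

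Among 20 tested NF-κB regulators and targets 8 had a positive and 2 a negative interaction (background 14.9% and 16.1%), with a median of 0.33. Vcam1, an adhesion molecule, widened from 0.30 to 1.04 (interaction 0.73, SE 0.09, adjusted p = 1.01e-05), and Nfkbia, the inhibitor IκBα, appeared with 0.85 (interaction 0.75, SE 0.11, adjusted p = 2.87e-05). Of 42 interferon response genes 6 had a positive and 8 a negative interaction, near the background, and the positive ones became 3 without differentiated LIGHT 2, while the negative ones ranged from 5 without that library to 12 without undifferentiated control 2. Before differentiation 31 of the 42 were higher and 1 lower in LIGHT cells (background 22.3% and 22.1%). After it 15 were higher and 2 lower (background 14.6% and 16.4%). In 6 the excess vanished, and the median interaction was -0.15. B2m, the light chain of class I MHC, was among the 6 positive ones. It was not called before and was higher in LIGHT cells after (0.08 and 0.61, interaction 0.53, SE 0.08, adjusted p = 3.52e-05).

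Cholesterol synthesis and uptake genes went from higher to lower in LIGHT cells. The background was 22.3% higher before and 16.4% lower after. Of 24 tested members 21 were higher before, and 18 were lower after, 11 without differentiated LIGHT 2. In all 22 had a negative and 0 a positive interaction (0 were positive at an unadjusted p under 0.05, and DESeq2 called 0), with a median of -0.78. The background shares were 16.1% negative and 14.9% positive. In 16 the difference reversed to lower, in 10 without differentiated LIGHT 2, and in 4 it vanished, in 10 without that library and in 8 without differentiated control 2. The sum over the list was 2110 to 2260 CPM in control and 3120 to 3180 in LIGHT libraries before. After differentiation it was 5070 and 5130 CPM in control 2 and 3 against 4030 and 4190 in LIGHT 2 and 3. The libraries labelled control 1 and LIGHT 1 held 4190 and 5090 CPM. Hmgcs1, which makes HMG-CoA for the mevalonate pathway, shows the pattern. Hmgcs1 gave 176, 189 and 169 CPM in the undifferentiated control libraries and 272, 266 and 271 CPM in the undifferentiated LIGHT libraries. On the differentiated side it ran at 702 and 681 CPM in control 2 and 3 and 477 and 502 CPM in LIGHT 2 and 3, with 476 CPM in the library labelled control 1 and 661 CPM in the library labelled LIGHT 1. Every LIGHT library was above the controls before and both kept LIGHT libraries below both controls after. On differentiation it rose by log2 1.98 in control and 0.86 in LIGHT cells, and the interaction was -1.12 (SE 0.08, adjusted p = 6.27e-09). Fdps, farnesyl diphosphate synthase, moved from 0.77 to -0.38 (interaction -1.15, SE 0.08, adjusted p = 6.27e-09). Mvd moved from 1.09 to -0.21 (interaction -1.30, SE 0.08, adjusted p = 1.06e-09), the deficit of which was lost with library totals and without differentiated control 3 or LIGHT 2. The promoter of Hmgcs1 (chr13:119690101-119690350, plus strand) is shown because it was the only member, of 17 of 24 with a RefSeq entry, that held the sterol response element TCACNCCAC in the 250 bases, in capitals, against 1.17% of tested genes.
Hmgcs1: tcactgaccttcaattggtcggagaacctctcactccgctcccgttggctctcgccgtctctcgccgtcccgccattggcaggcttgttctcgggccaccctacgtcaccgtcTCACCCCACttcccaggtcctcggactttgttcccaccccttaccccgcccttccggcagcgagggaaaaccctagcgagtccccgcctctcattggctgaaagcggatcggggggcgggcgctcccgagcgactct

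Fatty acid synthesis genes went the same way in part, against background shares of 16.1% negative and 14.9% positive interactions. Of 20 tested lipogenesis genes 10 had a negative and 2 a positive interaction, with a median of -0.42, and the 2 became 1 without differentiated LIGHT 3. Scd1, the desaturase that makes monounsaturated fatty acids, reversed. Scd1 gave 105, 94.6 and 96.2 CPM in the undifferentiated control libraries and 130, 138 and 133 CPM in the undifferentiated LIGHT libraries. After differentiation it was 1940 and 2180 CPM in control 2 and 3 and 1210 and 1290 CPM in LIGHT 2 and 3, with 1240 CPM in the library labelled control 1 and 2190 CPM in the library labelled LIGHT 1. Among the kept libraries the lines did not overlap at either stage, and their order was opposite. The line difference went from 0.45 to -0.73 (interaction -1.18, SE 0.09, adjusted p = 1.87e-08), and that of Scd2 from 0.59 to -0.48 (interaction -1.07, SE 0.09, adjusted p = 6.18e-08).

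Mitochondrial genes mostly had a lower change on differentiation in the LIGHT line than in control. Among all tested genes 16.1% had a negative and 14.9% a positive interaction. Of 42 tested nuclear genes of oxidative phosphorylation 30 had a negative and 0 a positive interaction (0 at an unadjusted p under 0.05, and DESeq2 called 0), with a median of -0.30. In 16 the deficit of LIGHT cells appeared after differentiation, in 9 with library totals or without differentiated control 3 and in 10 without differentiated LIGHT 3. Uqcrc2 gave 135, 140 and 135 CPM in the undifferentiated control libraries and 156, 156 and 145 CPM in the undifferentiated LIGHT libraries. Its differentiated levels were 370 and 382 CPM in control 2 and 3 and 283 and 300 CPM in LIGHT 2 and 3, with 292 CPM in the library labelled control 1 and 365 CPM in the library labelled LIGHT 1. Uqcrc2, a core subunit of complex III, was apart in both stages among the kept libraries. It went from 0.17 to -0.37 (interaction -0.54, SE 0.07, adjusted p = 2.09e-05). In the list of the tricarboxylic acid cycle with fatty acid oxidation, 23 of 34 had a negative and 1 a positive interaction, with a median of -0.33; the positive one was Cpt1a, the carnitine transferase, which lost its call without undifferentiated control 3, undifferentiated LIGHT 3, differentiated control 2 or 3 or differentiated LIGHT 2. Etfa, the electron acceptor of fatty acid oxidation, reversed. Etfa gave 117, 131 and 121 CPM in the undifferentiated control libraries and 162, 158 and 146 CPM in the undifferentiated LIGHT libraries. Once differentiated, the cells held 465 and 472 CPM in control 2 and 3 and 320 and 322 CPM in LIGHT 2 and 3, with 328 CPM in the library labelled control 1 and 458 CPM in the library labelled LIGHT 1. LIGHT libraries were above all controls before and, among the kept libraries, below both controls after. It rose on differentiation in both lines, by 1.95 in control and 1.05 in LIGHT cells, and the interaction was -0.90 (SE 0.08, adjusted p = 1.11e-07). Hadha, the trifunctional protein, moved from 0.24 to -0.35 (interaction -0.59, SE 0.08, adjusted p = 8.76e-06).

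Core adipocyte genes were more often lower than higher in LIGHT cells after differentiation. Of 24 tested, 11 were lower after it (background 16.4%), with a median line difference of -0.25, and 1 was higher, 3 with library totals or without undifferentiated LIGHT 3. In the interaction 6 were negative and 2 positive (background 16.1% and 14.9%), with a median of 0.09; the 2 became 0 without differentiated LIGHT 3, 4 without undifferentiated LIGHT 1 or the low-count filter, and 1 without undifferentiated control 1, undifferentiated LIGHT 3 or differentiated control 2 or 3. Adipoq gave 2.6, 1.97 and 2.97 CPM in the undifferentiated control libraries and 2.66, 2.1 and 0.752 CPM in the undifferentiated LIGHT libraries. In differentiated cells the levels were 1310 and 1440 CPM in control 2 and 3 and 1000 and 999 CPM in LIGHT 2 and 3, with 1070 CPM in the library labelled control 1 and 1430 CPM in the library labelled LIGHT 1. The undifferentiated lines overlapped and the kept differentiated ones did not. Adipoq, the hormone adiponectin, rose by log2 9.12 in control and 9.11 in LIGHT cells, with an interaction of -0.01 (SE 0.34, adjusted p = 0.99) and an interval from -0.72 to 0.70. Fabp4, a fatty acid carrier, had an interaction of -0.02 (SE 0.26, adjusted p = 0.972) with an interval from -0.56 to 0.53, but -0.35 (adjusted p = 0.0147) without undifferentiated LIGHT 3. Pparg, the nuclear receptor that drives adipogenesis, narrowed from -0.72 to -0.37 (interaction 0.35, SE 0.11, adjusted p = 0.0267). That call was lost when undifferentiated control 1, undifferentiated LIGHT 2 or 3, differentiated control 2 or 3 or differentiated LIGHT 3 was left out. Lipe, hormone-sensitive lipase, reversed to lower, from 0.96 to -0.45 (interaction -1.41, SE 0.13, adjusted p = 1.81e-07), and Cebpa vanished from higher (0.77 to 0.06). Summed over the list the level was 30100 and 31800 CPM in differentiated control 2 and 3 against 25200 and 25800 in LIGHT 2 and 3, with 25400 and 31600 in the libraries labelled control 1 and LIGHT 1. The part of this difference in the lower levels of cholesterol, lipid and mitochondrial genes in differentiated LIGHT cells was not tested. Of 13 tested thermogenic genes 1 had a positive and 2 a negative interaction, no more than the background shares, the 2 becoming 1 with a replicate block and without undifferentiated control 1 or 3, undifferentiated LIGHT 2 or differentiated control 3 or LIGHT 3. After differentiation 6 of the 13 were lower in LIGHT cells, 3 without differentiated control 2. Kcnk3, a potassium channel of brown fat, reversed from 0.73 to -0.68 (interaction -1.41, SE 0.17, adjusted p = 6.27e-06), and Ppargc1a, the coactivator of mitochondrial biogenesis, from -0.71 to 0.76 (interaction 1.47, SE 0.34, adjusted p = 0.0027); the latter class was lost with a replicate block and without undifferentiated control 3, undifferentiated LIGHT 2, differentiated control 3 or differentiated LIGHT 2.

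Cell cycle genes were mostly lower in LIGHT cells before differentiation, and many lost or reversed that deficit. The background was 22.1% lower before, and 14.6% higher and 16.4% lower after. For this list and the next 2 lists, the background of interactions was 14.9% positive and 16.1% negative. Of 36 tested members 28 were lower before, and 14 were higher and 1 lower after, the 14 becoming 7 without differentiated control 2 and 8 without LIGHT 2. In all 27 had a positive and 0 a negative interaction (0 at an unadjusted p under 0.05, and DESeq2 called 0), with a median of 0.46. In 14 the deficit vanished and in 10 it reversed, in 6 without differentiated control 2 or LIGHT 2. Mcm4, a subunit of the replicative helicase, reversed. Mcm4 gave 190, 206 and 205 CPM in the undifferentiated control libraries and 171, 152 and 158 CPM in the undifferentiated LIGHT libraries. The differentiated libraries held 52 and 53 CPM in control 2 and 3 and 84.1 and 84.2 CPM in LIGHT 2 and 3, with 84.8 CPM in the library labelled control 1 and 50 CPM in the library labelled LIGHT 1. LIGHT libraries were below all controls before and, among the kept libraries, above both controls after. The line difference went from -0.31 to 0.67 (interaction 0.98, SE 0.09, adjusted p = 9.23e-08). Ccnd1, cyclin D1, went from -0.70 to 0.25 (interaction 0.95, SE 0.08, adjusted p = 3.85e-08), but it was a vanishing gene without differentiated LIGHT 2. Among 24 p53 and cell death genes 10 had a negative and 4 a positive interaction, the 4 becoming 2 without differentiated LIGHT 3. The positive count of this list was near the background share. Its median interaction was 0.01, with a median line difference of 0.11 before and 0.1 after. Gadd45a, a stress-induced growth arrest gene, reversed to lower. Gadd45a gave 61.9, 72.4 and 64.1 CPM in the undifferentiated control libraries and 111, 110 and 103 CPM in the undifferentiated LIGHT libraries. On the differentiated side it ran at 97.7 and 93.9 CPM in control 2 and 3 and 61.5 and 58.6 CPM in LIGHT 2 and 3, with 50.9 CPM in the library labelled control 1 and 84 CPM in the library labelled LIGHT 1. LIGHT libraries were above all controls before and, among the kept libraries, below both controls after. The interaction was -1.40 (SE 0.10, adjusted p = 6.06e-09). Cdkn1a, the inhibitor p21, moved from 0.53 to -0.29 (interaction -0.83, SE 0.08, adjusted p = 5.03e-07). Of 20 glucocorticoid targets 9 had a negative and 4 a positive interaction, with a median of -0.35. Ddit4, an inhibitor of mTOR induced by glucocorticoids and stress, reversed from 0.51 to -0.92 (interaction -1.43, SE 0.08, adjusted p = 1.06e-09), and Sgk1, a kinase in this list and the early list, widened from 0.15 to 1.16 (interaction 1.01, SE 0.09, adjusted p = 1.76e-07), with a difference before that was lost under DESeq2, library totals and without undifferentiated control 1 or 2 or undifferentiated LIGHT 1.

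Matrix genes were split, 8 with a positive and 9 with a negative interaction of 34, with 12 positive under library totals, 4 without differentiated control 3 and 5 without undifferentiated control 1, undifferentiated LIGHT 1 or 2 or differentiated control 2 or LIGHT 2. Their median of -0.03 was 0.07 with library totals. For the lists of this paragraph the background was 14.9% positive and 16.1% negative. Timp1, an inhibitor of matrix proteases, reversed to higher. Timp1 gave 280, 274 and 279 CPM in the undifferentiated control libraries and 191, 194 and 181 CPM in the undifferentiated LIGHT libraries. After differentiation it was 40.6 and 43.1 CPM in control 2 and 3 and 67.1 and 68.2 CPM in LIGHT 2 and 3, with 78 CPM in the library labelled control 1 and 45.3 CPM in the library labelled LIGHT 1. Among the kept libraries the lines did not overlap at either stage, and the interaction was 1.23 (SE 0.08, adjusted p = 2.02e-09), from -0.55 to 0.69. Col6a2, a collagen VI chain, reversed to lower, from 1.17 to -0.21 (interaction -1.38, SE 0.09, adjusted p = 3.51e-09), with a difference after that was lost with library totals and without any of the 4 kept differentiated libraries. Of 26 genes that oppose adipogenesis 6 had a positive and 4 a negative interaction, the 6 becoming 3 without differentiated control 3 and the 4 becoming 2 with library totals and without undifferentiated control 2 or differentiated control 3 or LIGHT 2. Ddit3, the stress factor CHOP, reversed from 0.25 to -0.76 (interaction -1.01, SE 0.09, adjusted p = 7.52e-08), and the preadipocyte marker Dlk1 narrowed from 0.62 to 0.22 (interaction -0.40, SE 0.08, adjusted p = 0.000506), its difference after being lost without differentiated control 2, LIGHT 2 or LIGHT 3. Of 17 targets of PPARγ agonists 3 had a positive and 3 a negative interaction, near the background shares, with 5 positive without the low-count filter.

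**Figure D5:**
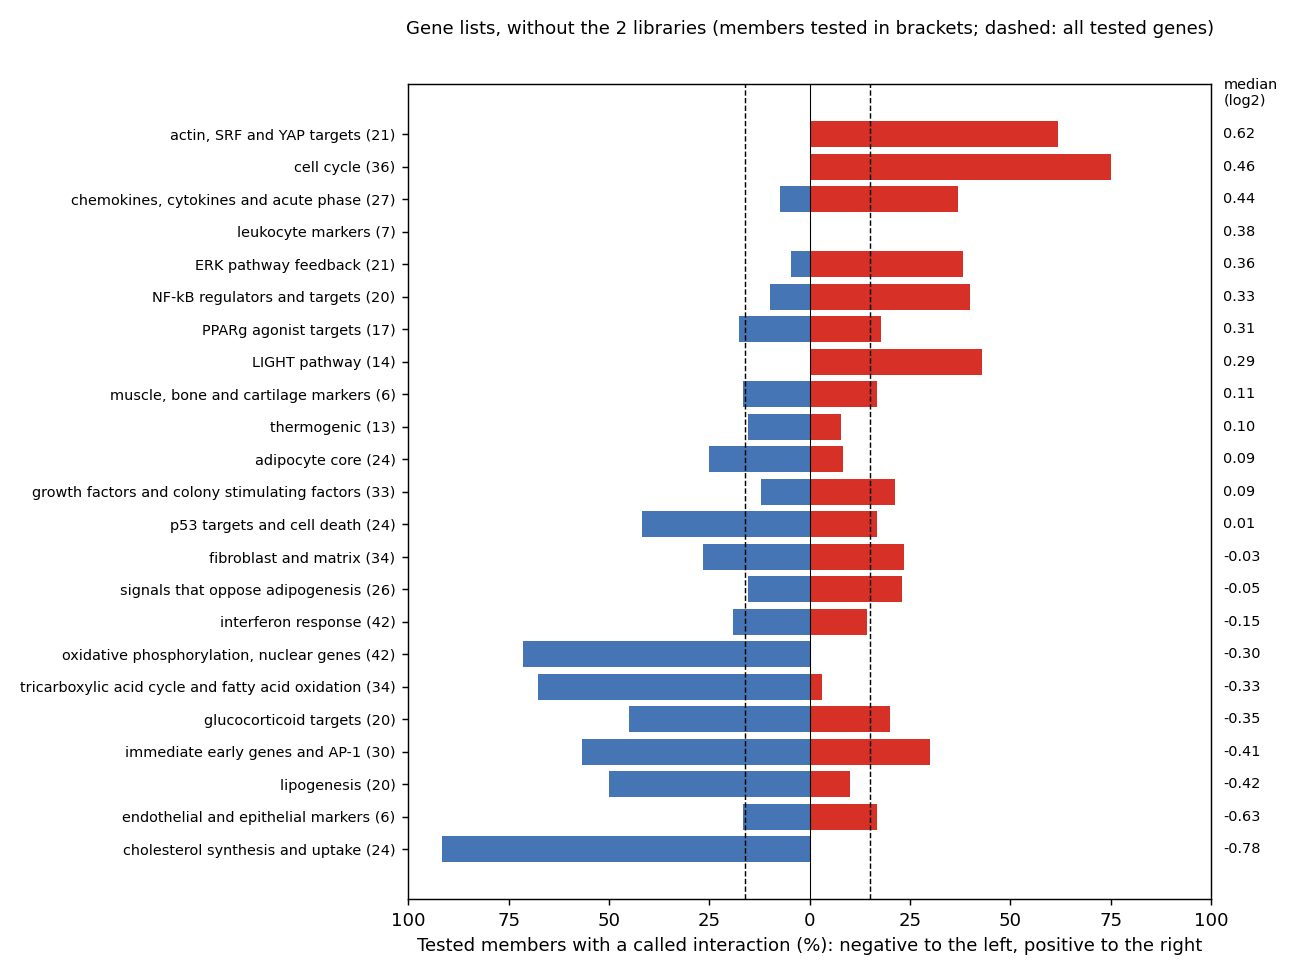
Share of tested members of each gene list with a called interaction, negative to the left in blue and positive to the right in red, without the 2 libraries; the number tested stands in brackets, the median interaction in log2 at the right, and dashed lines mark all tested genes (16.1% and 14.9%). Cholesterol genes reach 22 of 24 negative, cell cycle genes 27 of 36 positive.

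As labelled, fewer members of the lists with the most calls were called, against 4.26% of all genes negative and 5.08% positive. Of the 30 early genes 11 had a negative interaction and 2 a positive one, the 2 ranging from 0 (without undifferentiated LIGHT 1) to 4 (without the library labelled control 1). The 24 cholesterol genes gave 14 negative interactions, 8 with a replicate block or without undifferentiated control 3, 9 without undifferentiated LIGHT 2 and 21 without the library labelled LIGHT 1. The 36 cell cycle genes gave 14 positive ones, 20 without the library labelled control 1 and 9 or fewer without any other library but undifferentiated control 3 and the library labelled LIGHT 1. The 20 tested actin genes gave 5 positive ones, 9 without the library labelled control 1 and 3 without undifferentiated control 1, undifferentiated LIGHT 1 or 2 or differentiated control 3 or LIGHT 2. The 42 interferon response genes gave 6 negative interactions, with a median of -0.57. That count ranged from 3 to 9 with single libraries left out and under the other settings. Their positive interactions numbered 0 (0 at an unadjusted p under 0.05, and DESeq2 called 0). The 42 oxidative phosphorylation genes gave 2 negative ones, near the background share, and 6 and 5 without the libraries labelled control 1 and LIGHT 1. Of the 14 LIGHT pathway genes edgeR called 0 (1 at an unadjusted p under 0.05), and 1 without either of those libraries or without undifferentiated control 3. The median interaction of some lists had the other sign as labelled: it was -0.12 in the LIGHT pathway and -0.10 in the NF-κB list, the latter 0.17 and 0.06 without the libraries labelled control 1 and LIGHT 1.

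Markers of other cell types differed in level. Of 7 tested leukocyte markers edgeR called 0 interactions (1 had an unadjusted p under 0.05, and DESeq2 called 0), and their sum was 16 to 21.6 CPM before and 8.66 to 10.2 after differentiation. The endothelial and epithelial markers summed to 23.5 and 21 CPM in differentiated control 2 and 3 and to 9.56 and 8.29 in LIGHT 2 and 3, with 4.35 and 23.7 in the libraries labelled control 1 and LIGHT 1, and their part in other results was not tested. Muscle, bone and cartilage markers summed to 114 to 132 CPM before and 80.9 to 91.8 after, most of it Sox9 and Runx2, factors of cartilage and bone. Of 6 tested, 1 had a positive interaction, Tnnt2, a cardiac troponin (interaction 1.68, SE 0.46, adjusted p = 0.00951), and 1 a negative one, Des, the muscle filament desmin (interaction -0.57, SE 0.19, adjusted p = 0.0259). The call of Tnnt2 was lost without differentiated LIGHT 3, and that of Des with library totals and without undifferentiated control 1, undifferentiated LIGHT 1, differentiated control 3 or differentiated LIGHT 2.

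Among the largest changes were genes at 0 in a group, for which a fitted fold change is no bound. Olr1, a scavenger receptor induced by PPARγ agonists, had 36 counts in the undifferentiated control libraries and 0 in the undifferentiated LIGHT libraries, so LIGHT cells were at least 12.5-fold lower, with the floor set at 3 counts for the summed group. It was at least 406-fold higher in differentiated than in undifferentiated LIGHT cells, and after differentiation its line difference was 0.35 (interval -0.01 to 0.71), past no threshold. Gpt, alanine aminotransferase, was at 0 counts in undifferentiated control cells and at least 1030-fold higher in differentiated control cells, where it reached 56.1 and 61.9 CPM against 34.4 and 35.7 CPM in LIGHT 2 and 3.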

How the data were processed

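RNA of 12 libraries in 4 groups was analysed, with groups and replicate numbers from the labels. The authors deposited a table of expected counts and FPKM per gene for each library, per the file headers. An expected count is an estimate in which reads can be shared between genes. FPKM, which the authors scaled by length and depth, were not tested. The submitters' processing notes name mm8 as the build. The counting program and its use of strand are not stated there, and reads of overlapping or antisense genes cannot be told apart.

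Totals were 16334079 to 19686675 counts, and floors of 3 counts (0.152 to 0.184 CPM) cover counting error only. A gene absent from a library's table was taken as 0. Gene IDs without a symbol (888, with 4.23% to 5.24% of the counts) were kept. Counts were rounded. The test was the quasi-likelihood test of edgeR 4.0.16 under R 4.3.3, using TMM, filterByExpr (minimum count 10) and 1 coefficient per group, with Benjamini-Hochberg adjustment over all tested genes and a threshold of 0.05. CPM use TMM over 12 libraries. The standard error is the log2 fold change over the square root of F. DESeq2 1.42.0 and other settings were alternatives. The method was tested on simulated data.

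Members and lists were chosen with earlier results of these data known. The rule named 11 genes (among them Fos, Egr1 and Csf1), the 4 largest interactions of each class and sign at 5 CPM or more, the 3 smallest p of each list and every tested early gene, not all of which are given. Cpt1a, Prdm16, Sox9 and Runx2 were named after their values were seen.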

Additional observations from a re-analysis of the deposited data

Results flagged for a closer look

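Several results met the test of a change in the line difference between the stages, which is the interaction. As labelled, 660 genes had a positive and 554 a negative interaction, and without the 2 libraries that go against their labels 1964 and 2113. Fos had an interaction of -3.57 (SE 0.26, adjusted p = 8e-09), Egr1 of -2.43 (SE 0.08, adjusted p = 1.79e-13) and Csf1 of 1.65 (SE 0.08, adjusted p = 2.03e-10) without those libraries. The signs follow the coding of LIGHT over control after differentiation minus the same before it, and for Fos and Egr1 every undifferentiated LIGHT library lay above every undifferentiated control library.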

How the results depend on the processing

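The results were recomputed under DESeq2, under RLE or total-count scaling, unfiltered, at a minimum count of 50, with a replicate block and with each library left out. As labelled, DESeq2 gave 1 gene that differed after differentiation and 1 reversal. Leaving out the 2 libraries gave 1964 positive and 2113 negative interactions, 5836 differences before and 4079 after, 1064 appearing and 755 reversing genes; these libraries hold Tnfsf14 against their labels, and the cause of that was not tested. With single libraries left out of the 12, positive interactions ranged from 349 to 982, negative ones from 326 to 886, differences before from 2238 to 4280 and vanishing genes from 672 to 1635. From the 10, the ranges were 1455 to 1990, 1577 to 2181, 4985 to 5778 before, 2568 to 4295 after, 675 to 1135 appearing, 1454 to 1665 vanishing and 450 to 824 reversing; where this left 1 library in an arm, that library was assumed to vary like the others. Replicate numbers showed no positive pairing of the samples, as correlations of deviations between groups were at most 0.1. Between differentiated control and LIGHT they were -0.62, -0.34 and -0.29 for replicates 1, 2 and 3 over the 12 libraries. Over the 10 libraries they were -0.03 for replicates 2 and 3. A replicate block as labelled gave 392 positive, 355 negative and 744 vanishing genes, and the cause was not tested. No named gene changed the sign of a called interaction under any of these settings. A count of 3 was worth 0.152 to 0.184 CPM, so genes near that level cannot be classed.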

Other observations

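Among genes outside the lists, chosen here after their values were seen as those with the smallest interaction p without the 2 libraries, several moved in opposite directions. Timp2, an inhibitor of metalloproteinases, reversed to higher with an interaction of 1.36 (SE 0.08, adjusted p = 1.06e-09). Timp2 ran at 709, 649 and 694 CPM (control before), 524, 553 and 565 (LIGHT before), 245 and 250 (control after) and 532 and 496 (LIGHT after), against 588 and 247 in the libraries labelled control 1 and LIGHT 1. Tcf7l1, a repressor of Wnt targets, reversed to lower with -1.56 (SE 0.08, adjusted p = 1.63e-10), and Hmga1, a chromatin protein of growing cells, to higher with 1.47 (SE 0.09, adjusted p = 1.06e-09). Anxa8, an annexin, appeared lower (interaction -1.70, SE 0.10, adjusted p = 1.06e-09) and Cmtm3 appeared higher (interaction 1.21, SE 0.07, adjusted p = 1.06e-09).

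Others of these genes, also chosen after their values were seen, were Ero1l, Trib3, Ppp1r15a and Xbp1. Ero1l is an oxidase of disulphide formation and had an interaction of -1.71 (SE 0.11, adjusted p = 4.07e-09). Ero1l ran at 257, 234 and 201 CPM (control before), 270, 274 and 260 (LIGHT before), 1950 and 1730 (control after) and 624 and 694 (LIGHT after), against 627 and 1660 in the libraries labelled control 1 and LIGHT 1. Trib3 (interaction -1.06, SE 0.07, adjusted p = 6.48e-09), Ppp1r15a (interaction -1.40, SE 0.10, adjusted p = 8e-09) and Xbp1 (interaction -0.98, SE 0.08, adjusted p = 3.42e-08) reversed to lower as well, each higher in LIGHT cells before differentiation and lower after it.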
